A study of Mus musculus with 16 samples.

Results

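The olfactory bulb (OB) was compared with the subependymal zone (SEZ) in mice carrying a conditional knockout (cKO) of Brg1, using 3 OB and 3 SEZ arrays out of 16 in the study. The arrays were chosen by their tissue and genotype labels, and all 19938 genes with 1 symbol in the platform annotation entered the comparison. The question was which regional differences are present when Brg1 is deleted in cells of the Glast lineage. The cKO animals had the genotype GlastCreERT2/Brg1fl/fl. The other 10 arrays, 5 per tissue, came from control animals with the genotype GlastCreERT2/Brg1fl/+, except SEZ control replicate 5, which was labelled Brg1+/+. They serve here only to set the cKO values beside.

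All animals were 2.5 months old and of mixed C57BL/6 and CD1 background, and their sex was not determined. Brg1, the product of Smarca4, supplies the ATPase activity that lets SWI/SNF complexes move nucleosomes. The recombinase CreERT2 is driven from the locus of Glast, a glutamate transporter of astroglia encoded by Slc1a3. Cells outside that lineage, which includes neurons born from recombined astroglial stem cells, were not targeted. The samples are labelled as untreated, and the sources used here do not give the time of recombination. The labels call the samples biological replicates but do not say whether OB and SEZ samples of one number came from one animal.

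The SEZ lines the lateral ventricle beside the striatum and holds neural stem cells of the astroglial lineage, which divide and give rise to neuroblasts through adult life. Neuroblasts migrate from there into the core of the OB and become granule and periglomerular interneurons. The resident output neurons of the OB, the mitral and tufted cells, are glutamatergic and are made before birth. Ependymal cells with motile cilia cover the ventricle wall.

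Values are log2 expression per probe set from one-colour Affymetrix arrays, so that a difference of 1 is 2-fold. Differences are OB minus SEZ, with the standard error (SE) of the fit and an adjusted p from limma, and a gene was called at an adjusted p under 0.05. Medians of the 16 arrays lay between 7.45 and 7.65. The number of arrays limits the precision, and in bulk tissue fewer cells of a type and less RNA per cell cannot be told apart.

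Single cKO arrays stood apart in known genes. Slc1a3 was at 11.74, 11.66 and 8.85 in the OB cKO arrays and at 11.32, 11.16 and 8.16 in the SEZ cKO arrays, so replicate 3 was low in both tissues. Xist, which coats the inactive X chromosome in females, was at 6.08, 12.58 and 6.03 in OB cKO and at 12.40, 12.33 and 6.29 in SEZ cKO, so the replicate 1 samples of the tissues differed. Dcn, a proteoglycan of meningeal fibroblasts, was at 10.25 in OB cKO replicate 1, against 8.17 and 8.02 in the other OB cKO arrays and 8.77, 8.04 and 7.92 in SEZ cKO. Ttr, which is made by choroid plexus epithelium, was at 6.67, 7.08 and 6.82 in OB cKO and at 8.22, 8.19 and 10.30 in SEZ cKO. Many results that change without replicate 1 or replicate 3 of both cKO tissues are given with both values, but not all. Other list counts moved too. Of the regional transcription factors below, 17 were called, against 13 without replicate 1 of both tissues and 14 without replicate 3 of both.

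**Figure D1:**
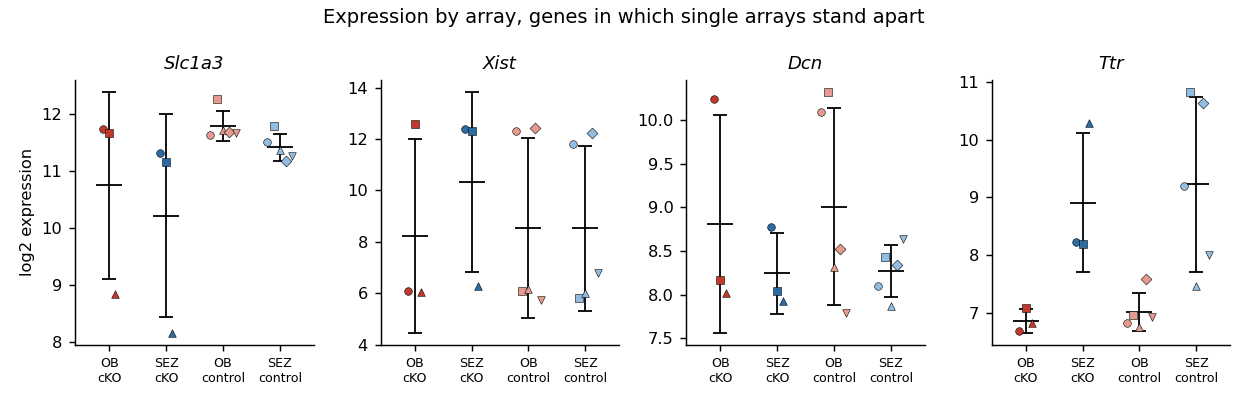
Log2 expression of Slc1a3, Xist, Dcn and Ttr on each array, with the marker shape giving the replicate number and bars giving mean ± SD of the 3 cKO or 5 control arrays. Slc1a3 is low in replicate 3 of both cKO tissues (8.85 in OB and 8.16 in SEZ), and Dcn is high in OB cKO replicate 1 (10.25).

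Regional differences were widespread in cKO mice. Of 19938 genes, 4614 were called (23.1% of genes tested), 1993 higher in OB (10%) and 2621 lower in OB (13.1%). At least 2-fold differences were called for 1048 genes (5.26%), 495 higher (2.48%) and 553 lower (2.77%). Differences over 3 on the log2 scale, which is over 8-fold, were called for 35 genes higher in OB and 32 lower. Without replicate 1 of both cKO tissues 2996 genes were called at any size and 1022 at 2-fold, and without replicate 3 of both 3445 and 1057. The values of all 3 OB cKO arrays lay on one side of all 3 SEZ cKO arrays for 6639 genes (33.3%). When each array was centred on its median, 1487 were higher and 3073 lower, so the share of higher calls was 32.6%, against 43.2% in the values as deposited.

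In control mice 5491 genes were called for the same contrast (27.5%), 2512 higher in OB (12.6%) and 2979 lower (14.9%), over 5 arrays a tissue. At 2-fold 966 were called (4.85%), 460 higher (2.31%) and 506 lower (2.54%), and 892 of them were also among the 1048 of cKO mice. Both genotypes shared 4056 calls in the same direction and 0 in opposite directions. These were 87.9% of the cKO calls and 73.9% of the control calls. Of the 558 genes called in cKO mice only, 537 had the same sign in controls. The test of the difference itself, cKO minus control of OB minus SEZ, called 1 gene (0.00502%), Islr2. An unadjusted p under 0.05 in limma was found for 296 genes, where 997 are expected by chance. A count below that number means that these p-values were not evenly spread, and the cause was not tested. The scarcity of calls therefore does not show that the regional differences were equal in the genotypes.

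**Figure D2:**
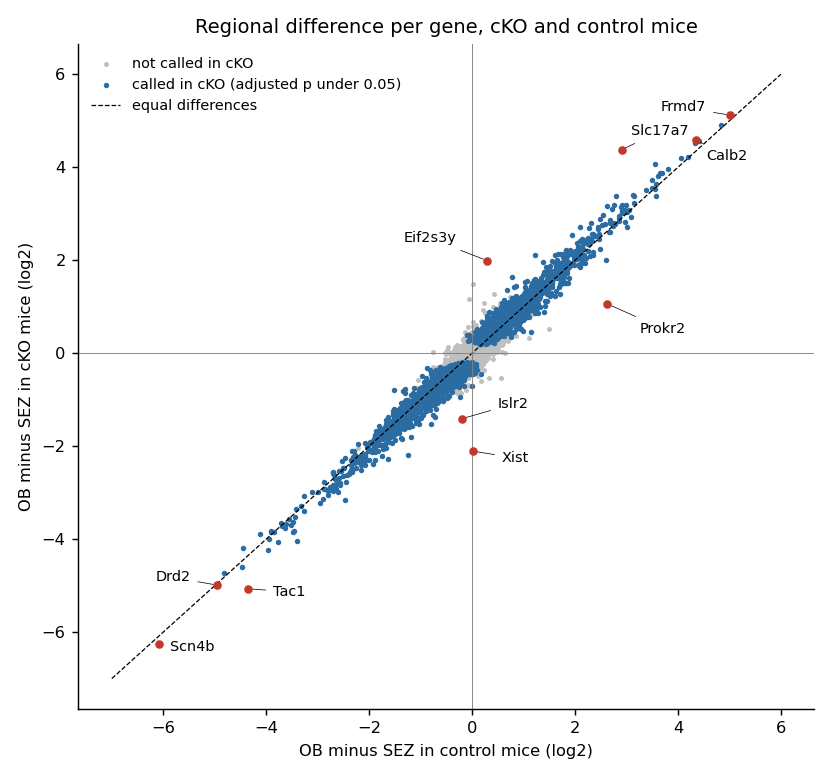
OB minus SEZ in cKO mice (vertical axis, log2) against OB minus SEZ in control mice (horizontal axis, log2) for each of 19938 genes, with the 4614 called in cKO mice in blue and the line of equal differences dashed. Named genes are in red: Frmd7 (5.12 in cKO) and Scn4b (-6.25 in cKO) lie at the ends, and Islr2 and Prokr2 lie below the line.

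Interneuron genes of the bulb were higher in OB. The list of granule and periglomerular interneurons had 23 measured members, of which 18 were higher in OB cKO, 2 lower and 3 not called. Its median difference was 1.07 in cKO and 1.05 in control mice, against -0.02 over all genes in cKO mice and 0.00 in controls. Calb2, the calcium-binding protein calretinin of granule and periglomerular cells, was at 12.78, 12.60 and 12.73 in OB cKO and at 8.66, 7.65 and 8.05 in SEZ cKO. The arrays of the tissues were widely separated, and the difference was 4.59 (SE 0.20, adjusted p = 3.06e-11).

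Scgn, another calcium-binding protein of bulb interneurons, was at 10.20, 10.19 and 10.12 in OB cKO and at 5.99, 5.44 and 5.38 in SEZ cKO. The SEZ mean lay under the lower quartile of all probe sets on those arrays, a range in which levels are poorly resolved. Counted against that quartile, Scgn was at least 18.1-fold higher in OB cKO. Gng4, a G protein subunit, was higher in OB by 3.71, and Sp8, a zinc finger factor of calretinin interneurons, by 2.87. The dopaminergic markers Th, the rate-limiting enzyme of dopamine synthesis, and Slc6a3, the dopamine transporter, were higher by 3.37 and 2.55. They are named here after their values were seen.

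Calb1, calbindin, went the other way, at 7.90, 7.88 and 7.61 in OB cKO and 11.83, 11.93 and 11.82 in SEZ cKO, a difference of -4.06 (SE 0.21, adjusted p = 2.01e-10). Calbindin marks a class of periglomerular cells and also striatal projection neurons. Ddc, aromatic amino acid decarboxylase, was lower in OB by 0.72 on the log2 scale (adjusted p = 0.029), and the call was lost without replicate 1 or replicate 3 of both tissues and without any single OB cKO array or SEZ cKO replicate 1 (highest adjusted p = 0.311). Slc32a1, the vesicular GABA transporter of all inhibitory neurons, was at 10.38, 10.75 and 10.46 in OB cKO and 10.81, 10.54 and 10.64 in SEZ cKO. Its groups overlapped, and the difference was -0.13 (95% interval of ± 0.26, adjusted p = 0.526).

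Output neuron genes of the bulb had the highest median of the lists. Of 15 measured members of the mitral and tufted cell list, 12 were higher in OB cKO, 1 was lower and 2 were not called, with a median difference of 2.52 in cKO and 2.27 in control mice. Slc17a7, the vesicular glutamate transporter VGLUT1, was at 12.61, 12.51 and 12.56 in OB cKO and 8.04, 8.68 and 7.84 in SEZ cKO, a difference of 4.38 (SE 0.50, adjusted p = 3.52e-06). In controls its difference was 2.91, with 12.32 to 12.64 in OB and 8.44 to 11.06 in SEZ, where replicates 2 and 4 were the highest at 10.58 and 11.06. The difference of these differences, 1.47, was not called (SE 0.63, adjusted p = 1).

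Eomes, a T-box factor of mitral and tufted cells, was at 10.87, 10.49 and 10.54 in OB cKO and 6.75, 5.84 and 6.65 in SEZ cKO (difference 4.22). Doc2g, a calcium sensor relative with C2 domains, was at 12.09, 11.80 and 11.88 in OB cKO and 7.82, 8.31 and 7.75 in SEZ cKO (difference 3.96). Shisa3 was higher in OB by 3.87. Tbr1, another T-box factor, was higher by 1.44 (adjusted p = 0.025), a call lost without any single cKO array other than OB cKO replicate 2 (highest adjusted p = 0.135). Uchl1, a neuronal deubiquitinase, was lower in OB by 0.89 on the log2 scale (adjusted p = 5.06e-07). Reln, the secreted guide of cortical layering, which mitral cells also make, had a difference of 0.61 that was not called (adjusted p = 0.077) although its groups did not overlap. It was called when only the cKO arrays were fitted, with cyclic loess and with the replicate number as a block.

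The 10 genes with the largest higher values in OB included further receptors and enzymes. Frmd7, a FERM domain protein, was at 11.28, 11.06 and 11.15 in OB cKO and 6.18, 5.98 and 5.96 in SEZ cKO. Its difference of 5.12 (SE 0.12, adjusted p = 2.89e-14) led all genes. Cpa6, a secreted carboxypeptidase, followed with 4.91 (SE 0.10, adjusted p = 8.97e-15), then Vipr2, a receptor of vasoactive intestinal peptide, with 4.51, Lgr5, a receptor of R-spondins, with 4.20, and Nrip3 with 4.07. Control mice gave 5.00 for Frmd7, 4.83 for Cpa6, 4.34 for Vipr2, 4.06 for Lgr5 and 3.56 for Nrip3.

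Genes of striatal projection neurons were lower in OB almost without exception. Of 24 measured members 23 were lower in OB cKO and 1 was higher, with a median of -2.51 in cKO and -2.56 in control mice. Scn4b, a sodium channel beta subunit, was at 6.09, 6.69 and 6.51 in OB cKO and 12.48, 12.64 and 12.92 in SEZ cKO, and its difference of -6.25 (SE 0.16, adjusted p = 4.23e-14) exceeded that of any other gene. Drd2, the dopamine receptor of the indirect pathway, was at 8.58, 7.76 and 8.33 in OB cKO and 13.01, 13.22 and 13.41 in SEZ cKO (difference -4.99). Drd1, the receptor of the direct pathway, was at 7.86, 8.10 and 8.11 in OB cKO and 12.63, 12.50 and 12.71 in SEZ cKO (difference -4.59).

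Both pathways were represented among the largest differences. Tac1, the precursor of substance P, was lower in OB by 5.07 on the log2 scale in cKO and by 4.36 in control mice. Isl1, a LIM homeobox factor of direct pathway neurons, had a difference of -2.27. The exception was Arpp21, a cAMP-regulated phosphoprotein, at 11.87, 11.84 and 11.95 in OB cKO and 11.12, 11.16 and 11.23 in SEZ cKO (difference 0.71, adjusted p = 6.70e-06). The striatum adjoins the SEZ, and how much of the SEZ samples it made up was not measured.

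Outside that list, Kcnab1, a potassium channel beta subunit, was lower in OB by 4.23 on the log2 scale, and Crym, a thyroid hormone binding protein, by 3.99. Sh3rf2, a protein with SH3 and RING domains, differed by -4.72 and Lrrc10b by -4.04. The predicted gene Gm10754, whose OB mean lay under the lower quartile, was at least 5.17-fold lower in OB cKO. The differences of the other genes were between -3.41 and -4.82 in control mice.

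**Figure D3:**
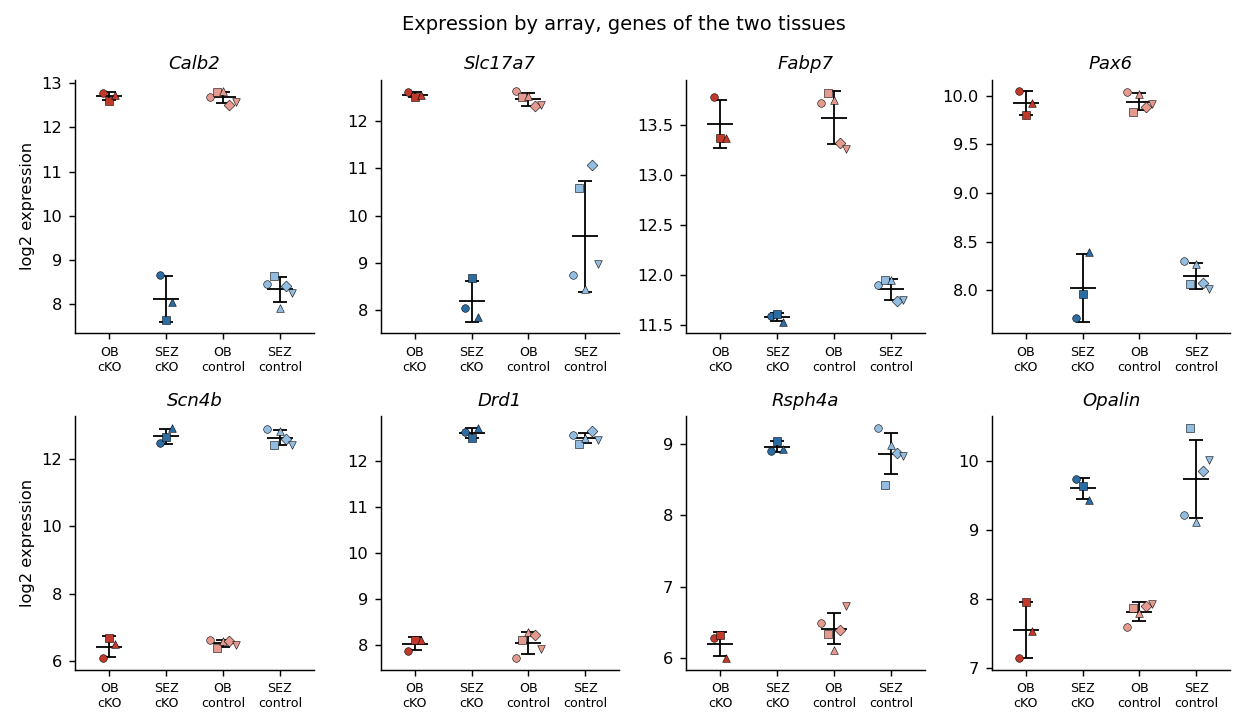
Log2 expression by array for genes higher in OB (Calb2, Slc17a7, Fabp7, Pax6) and lower in OB (Scn4b, Drd1, Rsph4a, Opalin), with OB left of SEZ, cKO left of control, and bars giving mean ± SD (n = 3 cKO, 5 control). No OB cKO array overlaps an SEZ cKO array in these 8 genes, and Slc17a7 spreads from 8.44 to 11.06 over the SEZ controls.

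Ependymal genes were lower in OB. Of 31 measured genes of motile cilia, 27 were lower in OB cKO, 2 were higher and 2 were not called, and the median was -0.88 in cKO and -0.90 in control mice. Leaving out replicate 1 of both cKO tissues gave 22 lower and 1 higher. Rsph4a, a radial spoke head protein, was at 6.27, 6.32 and 6.00 in OB cKO and 8.91, 9.05 and 8.92 in SEZ cKO, a difference of -2.76 (SE 0.17, adjusted p = 1.56e-09). Dnah6, an axonemal dynein heavy chain, differed by -2.98, Ak7, an adenylate kinase of cilia, by -2.21, and Cdhr4, a cadherin-related protein, by -2.21. Foxj1, the master factor of motile cilia, was lower by 0.37 on the log2 scale (adjusted p = 0.00913) and is named after its value was seen.

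Dnah11, another axonemal dynein heavy chain, was higher in OB. It was at 9.66, 9.21 and 9.65 in OB cKO and 7.04, 7.55 and 7.53 in SEZ cKO, a difference of 2.13 (SE 0.18, adjusted p = 9.80e-08), and 1.66 in control mice. Spag6, a central apparatus protein, was higher by 0.41 (adjusted p = 0.03), and that call was lost without replicate 1 or replicate 3 of both tissues and without either array of those numbers (highest adjusted p = 0.295).

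Promoters of these genes are shown because RFX factors bind X-box motifs in many cilia genes. The half-site GTTGCC was searched on both strands in the RefSeq windows of build GRCm38.p6 that run from 250 bases before to 50 bases after a gene's start. Of the 31 measured ependymal genes 27 had an entry, and 16 of these, or 59.3%, held the half-site, against 14.1% of all 27025 genes in the table. Counted by window, 16 of 31 (51.6%) held it, against 12.5% of 32851. A match describes letters in the window and is not a binding site. Dnah6 (-2.98) and Ak7 (-2.21) held no match, while Spag6, higher in OB, and Ccno and Rfx2, not called, did. The match is in capitals in 3 examples. They were picked as the largest differences among members with a match, 1 window and a call lower in OB cKO. Cdhr4 was lower by 2.21 on the log2 scale. Enkur and Sntn, whose OB means lay under the lower quartile, were at least 1.85-fold and 2.63-fold lower.
Cdhr4, chr9:107992207-107992506, plus strand: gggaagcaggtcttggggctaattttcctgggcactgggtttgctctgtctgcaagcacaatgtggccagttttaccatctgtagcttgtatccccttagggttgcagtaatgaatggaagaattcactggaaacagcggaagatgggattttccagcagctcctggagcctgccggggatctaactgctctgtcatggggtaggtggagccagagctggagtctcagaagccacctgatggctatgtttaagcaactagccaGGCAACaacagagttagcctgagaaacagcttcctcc
Enkur, chr2:21205316-21205615, minus strand: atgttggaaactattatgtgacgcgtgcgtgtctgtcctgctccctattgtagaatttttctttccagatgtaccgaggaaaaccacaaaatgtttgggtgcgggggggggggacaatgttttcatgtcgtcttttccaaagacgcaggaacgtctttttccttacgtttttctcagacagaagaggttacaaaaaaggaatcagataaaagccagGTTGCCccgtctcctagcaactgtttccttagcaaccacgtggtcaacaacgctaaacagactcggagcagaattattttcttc
Sntn, chr14:13670626-13670925, plus strand: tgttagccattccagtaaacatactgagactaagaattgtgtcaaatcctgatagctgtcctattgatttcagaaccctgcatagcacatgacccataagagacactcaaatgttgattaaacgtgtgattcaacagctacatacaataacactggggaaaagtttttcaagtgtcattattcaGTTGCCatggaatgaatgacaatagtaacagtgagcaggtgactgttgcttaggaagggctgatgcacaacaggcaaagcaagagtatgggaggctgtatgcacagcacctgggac
Counted from the gene's start, the first base of the match lay at -34 in Enkur, at -66 in Sntn and at 13 in Cdhr4, where it is on the opposite strand and reads GGCAAC.

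Proliferation genes were lower in OB. Of 27 measured cell cycle genes 16 were lower in OB cKO and 0 were higher, with a median of -0.34, and in controls 23 were lower and 0 higher, with a median of -0.51. The count was 12 without replicate 1 of both cKO tissues, and without replicate 3 of both 11. Kif11, the mitotic kinesin, was at 6.21, 6.67 and 6.20 in OB cKO and 7.71, 7.57 and 7.42 in SEZ cKO (difference -1.20, adjusted p = 1.06e-06). Top2a, the topoisomerase of dividing cells, differed by -0.86 and Mki67, which encodes the antigen Ki67, by -0.82. Bub1, a spindle checkpoint kinase whose OB mean lay under the lower quartile, was at least 1.15-fold lower in OB. Its relative Bub1b had a difference of 0.46 and Ccne2, a cyclin of S phase entry, of -0.34, and neither was called (adjusted p = 0.358 and 0.087).

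Neuroblast and young neuron genes were more often higher in OB. Of 27 measured members 14 were higher in OB cKO, 4 were lower and 9 were not called, with a median of 0.38. The share higher was 51.9%, against 10% of all genes, and the share lower was 14.8%, close to the 13.1% of all genes. In controls 19 were higher and 5 lower, with a median of 0.57. Dcx, a microtubule protein of migrating neuroblasts, was at 11.61, 11.59 and 11.63 in OB cKO and 9.54, 9.45 and 9.50 in SEZ cKO, a difference of 2.12 (SE 0.10, adjusted p = 1.50e-10) and of 2.11 in controls. Dlx1 and Dlx2, homeobox factors of forebrain interneurons, were higher by 2.79 and 1.86. Lower in OB were St8sia2, a polysialyltransferase (-1.38), Robo1, a Slit receptor (-1.12), and Ccnd2, a cyclin of precursors (-1.12).

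The astrocyte and neural stem cell list had no common direction, with 3 of 26 measured members higher in OB cKO, 7 lower and 16 not called (median -0.18). Over all genes 10% were higher and 13.1% lower, so the 11.5% higher in the list was close to the share of all genes, and 26.9% were lower. With the replicate number as a block 5 were higher and 11 lower. Id4, an inhibitor of bHLH factors, was at 8.69, 9.68 and 9.29 in OB cKO and 11.59, 11.68 and 11.56 in SEZ cKO (difference -2.39). Thbs4, an extracellular matrix protein of SEZ astrocytes, was at 7.58, 7.55 and 7.89 in OB cKO and 9.96, 9.72 and 10.33 in SEZ cKO (difference -2.33). Egfr, a growth factor receptor of activated stem cells and progenitors, differed by -0.74.

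Fabp7, a fatty acid binding protein of radial glia and of olfactory ensheathing cells, was at 13.79, 13.38 and 13.37 in OB cKO and 11.59, 11.61 and 11.53 in SEZ cKO, a difference of 1.94 (SE 0.15, adjusted p = 2.41e-08). Id2, a relative of Id4, was higher in OB by 0.69 and the water channel gene Aqp4 by 0.60. Slc1a3 itself was not called (difference 0.53, SE 0.71, adjusted p = 0.677), with replicate 3 low in both tissues as given above. OB minus SEZ within a replicate number was 0.41, 0.50 and 0.69, and with the number as a block Slc1a3 was called (adjusted p = 0.000787).

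Myelin genes were all lower in OB, 21 of 21 measured, with a median of -1.13 in cKO and -1.17 in control mice. Of these 17 were called, all lower, without replicate 1 of both cKO tissues. Opalin, a membrane protein of myelinating oligodendrocytes, was at 7.14, 7.96 and 7.54 in OB cKO and 9.73, 9.63 and 9.44 in SEZ cKO (difference -2.05, adjusted p = 2.00e-05). Ermn, a cytoskeletal protein of myelin, differed by -1.63, and the myelin membrane proteins Mal and Tspan2 by -1.498 and -1.46. Among oligodendrocyte progenitor genes 1 of 12 was higher in OB cKO (Lhfpl3, 0.92), 4 were lower and 7 were not called. The share higher was 8.33%, near the 10% of all genes, and the share lower was 33.3%, against 13.1%. Without replicate 1 of both tissues 1 was lower, and Vcan and Olig1 lost their calls, Olig1 also without replicate 3 of both, OB cKO replicate 1 or 3, or SEZ cKO replicate 1, and when only the cKO arrays were fitted. The count lower was 2 in that fit and without each of those single arrays, 6 with arrays centred on their medians and 7 with the replicate number as a block.

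Fewer vascular and immune genes were called, and each call was lower in OB. Of 21 endothelial and mural genes 11 were lower in OB cKO (52.4%, against 13.1% of all genes) and 0 higher (median -0.37). The largest difference was that of Acta2, smooth muscle actin, at 8.21, 7.92 and 7.69 in OB cKO and 9.22, 9.80 and 9.13 in SEZ cKO (-1.45, adjusted p = 6.96e-06). Of 21 microglia and macrophage genes 7 were lower (33.3%, against 13.1% of all genes) and 0 higher (median -0.31), led by the lysosomal genes Cd68 (-0.99) and Ctss (-0.93). Without replicate 1 of both cKO tissues 6 endothelial and mural genes and 2 microglial genes were lower, and Ctss lost its call. Without replicate 3 of both 6 and 6 were lower. Leaving out OB cKO replicate 3 or SEZ cKO replicate 1 alone left 7 and 4. The microglial count was higher in other settings, at 11 with arrays centred on their medians, 13 with the replicate number as a block, and 10 without OB cKO replicate 2.

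Choroid plexus genes showed little common movement, with 3 of 13 lower, 1 higher and 9 not called (median -0.10). The share called was 30.8%, near the 23.1% of all genes, and 5 were lower with arrays centred on their medians. Clic6, a chloride channel protein of the choroid plexus, was at least 4.95-fold lower in OB cKO, and Ttr was not called (difference -2.04, adjusted p = 0.0503), although it was without SEZ cKO replicate 2, with only the cKO arrays, with arrays centred on their medians and with the block. Trpm3, a cation channel that neurons also express, was higher in OB by 1.06. Olfactory ensheathing genes were called in 3 of 8, all higher in OB (37.5%, against 10% of all genes). Frzb, a secreted Wnt antagonist, was at 10.14, 9.66 and 9.46 in OB cKO and 6.60, 6.20 and 5.79 in SEZ cKO (3.56). The others were Fabp7 and Matn2, a matrix protein (1.04). Of 10 meningeal fibroblast genes 1 was called, higher in OB (10%, the same share as over all genes). This was Fn1, fibronectin (0.79, adjusted p = 0.021). Its call was lost without replicate 3 of both tissues, OB cKO replicate 1 or SEZ cKO replicate 2 or 3. It was also lost with arrays centred on their medians (highest adjusted p = 0.139). The mean of those 10 genes was 9.32 in OB cKO replicate 1, against 8.52 and 8.74 in the other OB cKO arrays and 8.39 to 8.67 in SEZ cKO.

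Cortical excitatory neuron genes were called in both directions, 5 of 12 higher in OB, 3 lower and 4 not called (median 0.23). The shares were 41.7% higher and 25% lower, against 10% and 13.1% of all genes. The mean over these 12 genes was 9.29 to 9.35 in OB cKO and 8.61 to 8.74 in SEZ cKO. In SEZ controls it was 9.17 and 9.42 in replicates 2 and 4, the arrays high in Slc17a7, against 8.68 to 8.77 in the other SEZ controls. Slc17a7 and Tbr1 are on this list and on that of mitral and tufted cells, so the mean cannot tell cortical tissue from those cells. The amount of cortical tissue in the samples was not measured. Nrn1, a secreted neuritogenic protein, was higher by 3.38. Lmo4, a LIM protein, differed by -1.85 and Rorb, a nuclear receptor of cortical layer neurons, by -0.67.

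**Figure D4:**
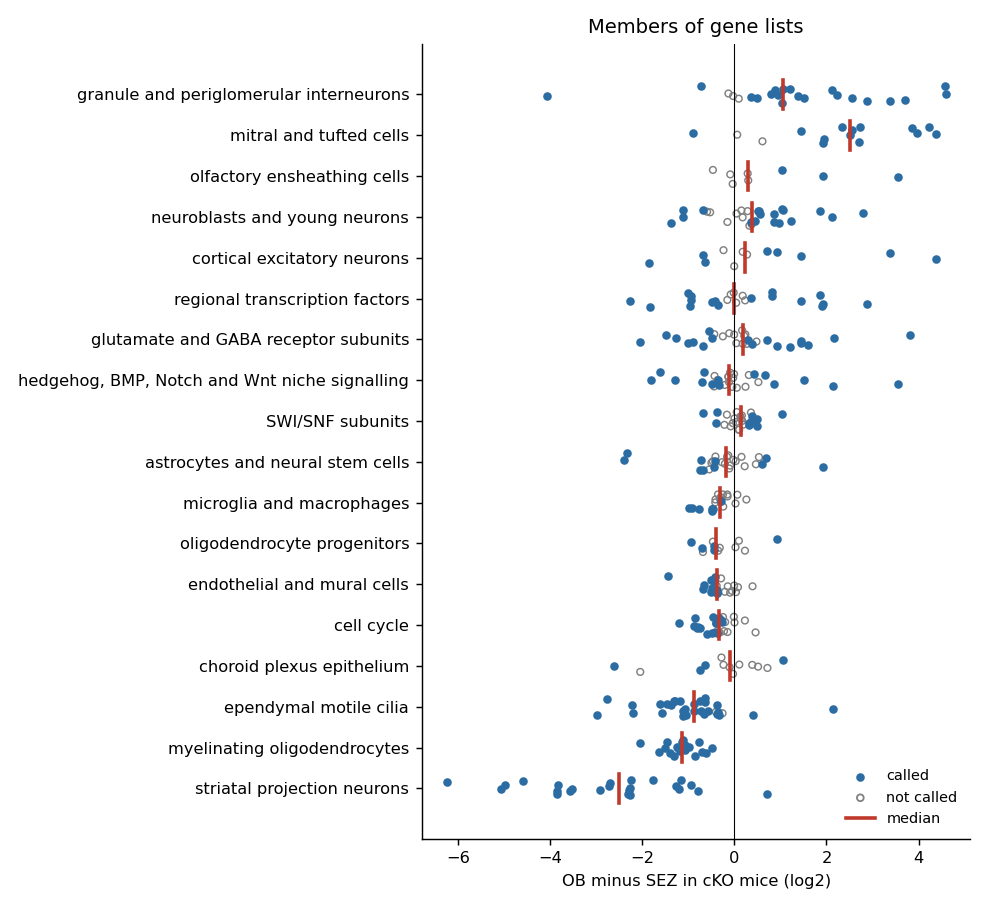
OB minus SEZ in cKO mice (log2) for the measured members of 18 gene lists, 1 point a gene, filled where called at an adjusted p under 0.05, with the red bar at the list median. The medians run from -2.51 for striatal projection neurons to 2.52 for mitral and tufted cells.

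Transcription factors with regional roles were called in 17 of 23 cases, 8 higher in OB and 9 lower, against 23.1% of all genes in either direction. Pax6, a paired-box factor of dopaminergic periglomerular cells and their precursors, was at 10.05, 9.80 and 9.92 in OB cKO and 7.71, 7.97 and 8.39 in SEZ cKO (difference 1.90, adjusted p = 1.06e-08). In controls its difference was 1.79. Zic2, a zinc finger factor, was higher in OB by 1.92. Lower in OB were Six3, a homeobox factor of the ventral forebrain (-1.84), and Nr2e1, a nuclear receptor of neural stem cells also called Tlx (-1.02).

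Pax6 is also 1 of 4 members of a neurogenic network that the study named from these same samples, so the list is not independent evidence. The other members were Pou3f4, a POU factor of striatal precursors, lower in OB (-1.38, adjusted p = 7.81e-07), and Sox11 and Nfib, neither of which was called. Sox11, an SRY-related factor of young neurons, was at 8.82, 9.64 and 8.84 in OB cKO and 9.68, 9.78 and 9.61 in SEZ cKO (-0.59, adjusted p = 0.055). Its call was gained without OB cKO replicate 2, with array weights and with the replicate number as a block (lowest adjusted p = 0.00324 over all settings). Nfib, a nuclear factor I family member, had a difference of 0.11 (adjusted p = 0.457).

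Signalling genes of the niche were called in 14 of 29 cases, 6 higher in OB and 8 lower. The shares were 20.7% and 27.6%, against 10% and 13.1% of all genes. The count lower was 5 without replicate 3 of both tissues, OB cKO replicate 3 or SEZ cKO replicate 1. It was 6 without replicate 1 of both tissues, and 10 with the replicate number as a block or without SEZ cKO replicate 3. Wnt5a, a secreted ligand of noncanonical Wnt signalling, was at 9.39, 9.41 and 9.03 in OB cKO and 7.10, 7.07 and 7.21 in SEZ cKO (difference 2.15). Hhip, a decoy receptor that binds hedgehog, was at 6.72, 7.61 and 7.03 in OB cKO and 9.04, 8.99 and 8.77 in SEZ cKO (-1.81). Gli3, a transcription factor of the hedgehog pathway, differed by -1.30, the secreted protein Dkk3 by -1.62, and the receptor Notch1 by -0.70.

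Glutamate and GABA receptor genes separated the tissues by subunit, with 10 of 29 higher in OB and 8 lower. The shares were 34.5% and 27.6%, against 10% and 13.1% of all genes. Grm2, a presynaptic metabotropic glutamate receptor, was at 11.62, 11.13 and 11.57 in OB cKO and 7.63, 7.602 and 7.67 in SEZ cKO, a difference of 3.81 (SE 0.16, adjusted p = 1.72e-11). Its close relative Grm3 was at 9.996, 10.50 and 10.34 in OB cKO and 12.33, 12.34 and 12.28 in SEZ cKO, a difference of -2.04 (SE 0.12, adjusted p = 1.48e-09). The GABA-A subunit gene Gabra5 was higher in OB by 2.17, while Gabrg3 differed by -1.49 and Gabrd, whose subunit serves tonic inhibition, by -1.26. Of 13 immediate early genes 3 were called (23.1%, the same share as over all genes), Btg2 (0.84), Ier2 (0.29) and Egr4 (-0.64), and only Btg2 was called without replicate 1 or replicate 3 of both tissues.

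SWI/SNF subunit genes differed between the tissues by small amounts. Smarca4 was at 10.997, 10.97 and 11.09 in OB cKO and 10.73, 10.62 and 10.77 in SEZ cKO, a difference of 0.31 (SE 0.07, adjusted p = 0.00199), and of 0.30 in control mice. Its probe set is not resolved by exon, so its level gives no check of the deletion. Of 26 measured subunit genes 7 were higher in OB cKO, 3 lower and 16 not called (median 0.14). The share higher was 26.9%, against 10% of all genes, and the share lower was 11.5%, close to the 13.1% of all genes. The counts were 3 and 3 without replicate 1 of both tissues.

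The alternative ATPase Smarca2, also called Brm, went the other way, at 10.87, 10.81 and 10.68 in OB cKO and 11.43, 11.38 and 11.58 in SEZ cKO (difference -0.68, adjusted p = 6.05e-05). The core scaffold gene Smarcc1 (-0.37) and Smarcd3 (-0.39) were also lower in OB, while Smarcc2 (0.39) and Smarcd1 (0.44) were higher. Dpf3, a PHD finger subunit, was at 8.62, 8.70 and 8.74 in OB cKO and 7.69, 7.82 and 7.46 in SEZ cKO, and its difference of 1.03 (adjusted p = 2.64e-07) was the only 2-fold one of the list. The other higher calls were Bcl7a (0.32), Dpf2 (0.49) and Brd9 (0.50). Each of these 3 was lost without replicate 1 of both tissues, SEZ cKO replicate 1 or SEZ cKO replicate 2, Brd9 and Dpf2 also without OB cKO replicate 1, Bcl7a when only the cKO arrays were fitted, and Dpf2 without replicate 3 of both or OB cKO replicate 3 (highest adjusted p = 0.234). Smarcc2 was lost without replicate 1 of both tissues (adjusted p = 0.0665). The 16 without a call, the core subunit genes Smarcb1 and Smarce1 among them, had differences between -0.22 (Actl6a) and 0.38 (Arid2).

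Genes that had stood out between cKO and control mice in earlier results of these data were set beside controls, 3 of 11 being higher in OB cKO, 5 lower and 3 not called. They were chosen on these arrays, so their departure from controls is a description, except where the difference of differences was tested over all genes. Islr2, a membrane protein of axon outgrowth, was at 8.90, 8.77 and 8.63 in OB cKO and 10.29, 10.06 and 10.19 in SEZ cKO, a difference of -1.41 (SE 0.12, adjusted p = 1.20e-07). In controls it was at 10.13, 10.06, 9.72, 10.06 and 10.32 in OB and 10.32, 10.28, 10.38, 10.21 and 10.15 in SEZ, a difference of -0.21 (adjusted p = 0.124). Only the OB cKO arrays were low. The difference of differences was -1.21 (SE 0.15, adjusted p = 0.0117), and it was not called without OB cKO replicate 2 or 3, SEZ cKO replicate 1 or 3, replicate 1 or replicate 3 of both tissues, or SEZ control replicates 2 and 4, nor with the replicate number as a block (highest adjusted p = 0.357).

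Prokr2, the receptor of a guidance cue for neuroblasts, was at 9.35, 9.69 and 9.02 in OB cKO and 8.27, 8.54 and 8.07 in SEZ cKO (difference 1.06, adjusted p = 0.00246). In controls it was at 10.98 to 11.55 in OB and 8.25 to 9.28 in SEZ (difference 2.62). It stayed higher in OB in cKO mice, and the difference of differences was -1.56 (SE 0.29, adjusted p = 0.46). Cd24a, a cell surface sialoglycoprotein that neuroblasts carry, was at 9.06, 8.57 and 8.44 in OB cKO and 9.19, 9.15 and 9.30 in SEZ cKO (difference -0.53, adjusted p = 0.109, lowest 0.0117 over all settings), against 0.57 in controls (adjusted p = 0.021). The signs were opposite, and the difference of -1.09 (SE 0.28, adjusted p = 1) was not called.

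The other 8 members are given with their differences in both genotypes. Sfrp2, a secreted Wnt modulator, had a difference of 0.52 in cKO (adjusted p = 0.087) and 1.502 in control mice, and Gng2, a G protein subunit, of 0.03 (adjusted p = 0.888) and 0.58. Nrep and the tubulin Tubb2b were higher in OB in both genotypes, by 0.45 in cKO and 1.15 in control mice for Nrep and by 0.36 and 0.76 for Tubb2b, and both cKO calls were lost without replicate 1 of both tissues, OB cKO replicate 1 or SEZ cKO replicate 1 and when only the cKO arrays were fitted, Nrep also without OB cKO replicate 2 or with arrays centred on their medians, and Tubb2b without SEZ cKO replicate 2 (highest adjusted p = 0.334). St8sia2 differed by -1.38 in cKO and -0.72 in control mice, and Ezh2, the polycomb methyltransferase, by -0.50 and -0.22. The proliferation genes Ccna2, cyclin A, and Mki67 were lower in OB by less in cKO (-0.79 and -0.82) than in control mice (-1.52 and -1.35). None of them was called for the difference of differences (lowest adjusted p = 0.46, for Ccna2).

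**Figure D5:**
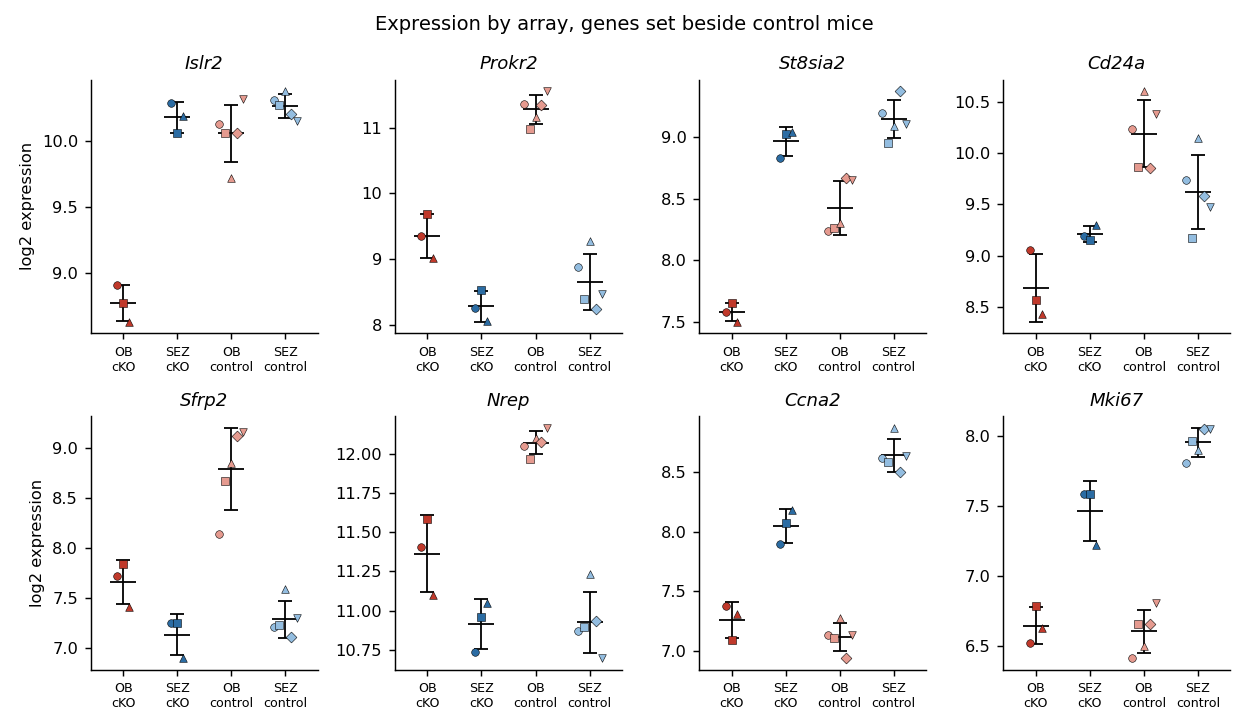
Log2 expression by array for Islr2, Prokr2, St8sia2, Cd24a, Sfrp2, Nrep, Ccna2 and Mki67, with OB left of SEZ, cKO left of control, and bars giving mean ± SD (n = 3 cKO, 5 control). Islr2 is at 8.63 to 8.90 on the OB cKO arrays and at 9.72 or above on all others, and Ccna2 and Mki67 are higher in SEZ than in OB in both genotypes.

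MicroRNA loci were examined after their values had been seen. Of 296 loci with 1 symbol, 29 were higher in OB cKO (9.80%, close to the 10% of all genes) and 0 were lower (against 13.1% of all genes), with a median difference of 0.07. In control mice 27 were higher and 6 lower, and with the replicate number as a block 36 and 11. Counts moved with single arrays. Leaving out 1 cKO array gave 14 higher (without OB cKO replicate 1 or 3 or SEZ cKO replicate 1) to 42 higher (without OB cKO replicate 2). The count was 6 without replicate 1 of both cKO tissues, 14 without replicate 3 of both, 43 with the replicate number as a block, and 4 of the 47 loci above the median level, while 0 to 6 were lower over all settings. The mean over all loci was 6.52, 6.26 and 6.63 in OB cKO and 6.22, 6.28 and 6.43 in SEZ cKO, so the tissues overlapped. The probe sets measure RNA from the locus and not the mature microRNA.

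Of the 29 called loci, 22 had both cKO means above the lower quartile of the arrays, 5 had the SEZ mean under it and 2 both means. Mir490 was at 7.57, 7.15 and 7.71 in OB cKO and 5.68, 5.30 and 5.40 in SEZ cKO (adjusted p = 3.41e-07). Its SEZ mean lay under the lower quartile, and it was at least 2.85-fold higher in OB cKO. The locus lies inside Chrm2, a muscarinic acetylcholine receptor gene, whose own difference was 2.85, and strand was not considered in that overlap. Mir30e lies inside Nfyc, a subunit gene of the nuclear factor Y complex with a difference of 0.58, and was at 7.66, 7.09 and 7.87 in OB cKO and 6.13, 6.46 and 6.60 in SEZ cKO (1.14, adjusted p = 0.000302). Mir9-3, a locus of a microRNA of neural progenitors and neurons, was at 7.06, 7.13 and 7.68 in OB cKO and 5.94, 6.25 and 6.32 in SEZ cKO (1.12). These 3 loci did not overlap between the tissues and were called in each of the 14 settings tried for single loci. The filter on dim genes was not among those settings. Mir384 was at 7.73, 6.42 and 7.85 in OB cKO and 5.38, 4.98 and 6.11 in SEZ cKO (adjusted p = 0.00618). Its SEZ mean lay under the lower quartile too, so it was at least 2.51-fold higher in OB cKO, and its call was lost without replicate 1 of both tissues (adjusted p = 0.0885). The mature sequences, from RefSeq on build GRCm38.p6, are shown with the seed, bases 2 to 8, in capitals, since miR-30e-5p and miR-384-5p share theirs.
miR-490-5p: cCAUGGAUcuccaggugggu
miR-490-3p: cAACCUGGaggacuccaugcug
miR-30e-5p: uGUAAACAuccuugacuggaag
miR-384-5p: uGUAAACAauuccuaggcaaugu
miR-9-5p: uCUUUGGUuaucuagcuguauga
Of the 29 called loci 19 lay inside 1 tested protein-coding gene. Of these hosts 11 were higher in OB, 1 was lower (Eml2, host of Mir330) and the rest were not called, against 10% higher and 13.1% lower of all genes. The loci were selected as higher in OB and their probe sets measure RNA from the locus. The host counts are therefore a description and not independent evidence.

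Sex-linked genes gave no call in the main fit (4 measured). With the replicate number as a block, 1 was called, Eif2s3y, higher in OB (limma adjusted p = 0.0344). Arrays high and low in Xist were in both cKO groups, but not in equal number, as given above. Xist differed by -2.11 (SE 2.42, adjusted p = 0.62), and the Y-linked genes Kdm5d, Eif2s3y and Uty by 1.17, 1.99 and 1.49. Without replicate 1 of both cKO tissues the median over the 4 genes was 0.11, against 1.33 with it.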

How the data were processed

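Total RNA of 16 samples was extracted with a column kit including DNase treatment and hybridised to Affymetrix arrays, per the labels' protocols. The deposited values are log2 expression per probe set, and the authors made them with RMA in Affymetrix Expression Console 1.2, per the submitters' processing notes. The sources used here do not give the genome build of the probe sets, and coordinates printed are those of RefSeq sequences.

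Of 35556 probe sets, the platform annotation gave 1 symbol to 21789, several to 1621 and none to 12146, and only the first were used. Symbols were checked by Entrez ID (21698 found, 0 changed). For 999 genes with several probe sets the brightest was used, giving 19938 genes. All 16 arrays were fitted with limma 3.58.1 in R 4.3.3 (lmFit, eBayes) on 4 groups (each tissue in each genotype) without a block, leaving 12 residual and 4.34 prior degrees of freedom. Tests were two-sided with Benjamini-Hochberg adjustment over all genes and a threshold of 0.05. The fit was tested on simulated data. No detection calls were used, so a gene whose group mean lay under the mean lower quartile of that group's arrays was given as a bound, against the higher of quartile and own value on each array. The numbers may pair the control samples, which the labels do not state. All 5 same-numbered pairs of control residuals correlated (0.17 to 0.57), and sex-linked genes matched in 5 of 5. Some other pairs correlated more, as OB control replicate 1 did with SEZ control replicate 3 (0.404) than with SEZ control replicate 1 (0.332). The main fit has no block and so ignores any such pairing. The numbers were not taken to pair the cKO samples (-0.06, 0.25 and 0.39, with a match in 2 of 3).

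Genes were named by a rule: the 10 largest differences each way among called genes without overlap, up to 6 members per list, the genes leading the difference of differences, and all sex-linked, earlier-effect, neurogenic network and SWI/SNF genes, a part of which is named. Lists are described by counts and medians, without a test. The comparison, the members and the lists were chosen with earlier results of these data known. Alternatives were cyclic loess, median centring, array weights, a robust intensity trend, a filter on dim genes, the mean of probe sets, the arrays of 1 genotype only, the replicate number as a block, a stricter threshold, and leaving out arrays.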

Additional observations from a re-analysis of the deposited data

Results flagged for a closer look

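In the main fit the regional difference of Islr2 departed from that in controls, with a difference of differences of -1.21 (limma adjusted p = 0.0117). That call was lost in 8 of 17 settings (highest adjusted p = 0.357), and Islr2 was among genes chosen on these arrays. In the 40 sets of 5 control arrays examined, chance alone would mark about 1 in 20, and 3 held an array far from the other 4. Slc1a3 was at 12.27 in OB control replicate 2, against 11.64 to 11.72 in the other OB controls. Gng2 was at 10.33 in OB control replicate 1, against 10.15 to 10.20 in the other OB controls. Kcnrg was at 6.19 in SEZ control replicate 3, against 5.99 to 6.04 in the other SEZ controls. Sets of 3 cKO arrays were not examined in this way.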

How the results depend on the processing

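The count of genes called in cKO mice was 2996 to 5765 over 19 alternatives, and it moved by over 1.5 times only without replicate 1 of both cKO tissues (2996). Leaving out 1 array gave 3605 to 4855. At 2-fold the count was 821 to 1172, and in controls 3930 to 7139, none over 1.5 times from the count reported. Blocking on the replicate number, 5765 genes were called in cKO mice, 1058 at 2-fold, 6461 in controls and 0 for the difference of differences. Not every array correlated best with its own number. The block changed no control call printed for a single gene. The difference of differences called 0 genes with the block, at an adjusted p under 0.01, without replicate 1 of both cKO tissues, without replicate 3 of both, or without SEZ control replicates 2 and 4 (chosen after seeing the data), 0 to 1 when 1 array was left out, and 2 with array weights (Islr2 and Prokr2). The value of Islr2 stayed between -1.27 and -1.13. Centring on medians shifted all genes by -0.08. Of 120 named genes called, 23 lost the call under at least 1 of 14 settings, and of 43 not called 19 gained one. For 0 genes did the sign change with a call in either fit. Some genes changed sign without a call, Slc1a3, Dcn and Slc32a1 among them. Of 23 list medians 9 moved by more than the spread between arrays and 2 changed sign. The cause of these changes was not tested. The counts of microRNA loci were recomputed under all settings after their values were seen.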
